A study of Mus musculus with 4 samples.

Results

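Expression of 43 cell cycle genes was measured in mouse prostate single-cell libraries, gene by gene and cell class by cell class. The genes were those of a fixed list whose symbol was found in the count matrix, and all 43 were found among its 30905 genes. They were read as 26 mitotic genes, used in the G2 phase and mitosis, and 17 S-phase genes, used to start and run DNA replication. Cells were freed from the prostates with collagenase type II and TrypLE, and their RNA was counted in droplets (10x Chromium 3' chemistry, version 3), in 4 groups with 1 library each. The groups are called Trp53-intact (age 4 months), Trp53-intact ADT (5.5 months), Trp53-deleted (3.5 months) and Trp53-deleted ADT (5.5 months). In the deleted groups Trp53, the gene of the p53 tumour suppressor, is marked PC in the genotype, read as a deletion in the prostate only. The labels do not say which cells of the prostate lost it, so no class is taken as Trp53-intact or Trp53-deleted by its name. ADT is not spelled out in the labels and is read as androgen deprivation therapy. With 1 library per group no difference has a replicate check, and an effect of ADT cannot be told apart from one of age or of the library, or an effect of genotype from one of the library or, without ADT, of age.

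A dividing cell copies its DNA in S phase and separates the copies in mitosis, and each step uses its own set of genes. Origins are licensed by Cdc6 and Cdt1, which load the Mcm2 to Mcm7 helicase; E2F1 and the E-type cyclins start S phase, and Pcna, Pclaf and the nucleotide enzymes Rrm1, Rrm2 and Tyms carry it through. Entry into mitosis runs through Cdk1 with its B-type cyclins, and exit through the anaphase-promoting complex, with which Cdc20 and Ube2c work. In the prostate, luminal cells depend on androgen and divide little in the adult, while neutrophils are terminally differentiated and no longer divide, so that neutrophil-like cells served here as the background.

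Levels are given as CPM: the unique molecule counts (UMIs) of a gene or gene set, summed over all cells of a class in a library, per 1000000 UMIs of that class there. A class is a set of clusters named from fixed marker genes, written with "-like", and clusters that could not be named are called by their leading genes. The cell cycle genes were kept out of the clustering. The 4 libraries gave 5387 to 8837 cells each, with a median of 4117.5 to 5678 UMIs per cell, and 10 to 25 cell barcodes were shared between any 2 libraries. Intervals are exact 95% intervals and cover counting error only. Between 2 libraries a member was measured if it had at least 20 UMIs over both, and was called higher or lower by size alone, at 1.5-fold after 5 CPM were added to each level. Where fewer than all members were measured, some passed only through the library in which they were high, so the counts are descriptions.

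The promoters of the members carry the sequence words by which these genes are known to be timed: the CHR element (TTTGAA or TTTAAA), bound by the DREAM and MuvB complexes in late-phase genes, the CCAAT box bound by NF-Y, and E2F sites (TTTCCCGC, TTTCGCGC, TTTGCCGC or TTTGGCGC) in replication genes. A RefSeq window of 300 bases (250 before and 50 after the start, build GRCm38.p6) was found for 36 of the 43 members, 22 mitotic and 14 S-phase, and was searched on both strands. A CHR word was present in 19 of 22 mitotic windows (86.4%) and in 5 of 14 S-phase windows (35.7%), against 30.6% of all 27025 genes with a window. An E2F word was present in 7 of 14 S-phase windows (50%) and in 1 of 22 mitotic windows (4.55%), that of Cdk1, against 2.60% of all genes. A CCAAT box was present in 20 of 22 mitotic windows (90.9%), 9 of 14 S-phase windows (64.3%) and 41.1% of all genes. The mitotic members whose window held no CHR word were Bub1, Cks2 and Nusap1. A word in a window is a description of its letters, not evidence of a bound site.

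The 150 bases before the RefSeq start of 4 members are shown 5′ to 3′ on the gene's strand, with matched words of either strand in capitals. Cdc20 (chr4:118437344-118437493, minus strand) has CCAAT boxes on both sides of a CHR word, the elements most mitotic windows hold. Cdk1 (chr10:69352913-69353062, minus strand) adds an E2F word to 2 CCAAT boxes and 2 CHR words. Cks2 (chr13:51645082-51645231, plus strand) is the mitotic member with the highest level in neutrophil-like cells, and has 2 CCAAT boxes with no CHR word. Mcm5 (chr8:75109359-75109508, plus strand) has an E2F word with CCAAT boxes.
Cdc20: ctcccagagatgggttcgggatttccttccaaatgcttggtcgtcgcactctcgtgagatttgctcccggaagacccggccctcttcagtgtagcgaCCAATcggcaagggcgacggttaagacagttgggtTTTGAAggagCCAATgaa
Cdk1: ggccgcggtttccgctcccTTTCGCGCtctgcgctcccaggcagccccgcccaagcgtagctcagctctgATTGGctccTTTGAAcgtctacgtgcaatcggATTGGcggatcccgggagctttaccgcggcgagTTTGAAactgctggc
Cks2: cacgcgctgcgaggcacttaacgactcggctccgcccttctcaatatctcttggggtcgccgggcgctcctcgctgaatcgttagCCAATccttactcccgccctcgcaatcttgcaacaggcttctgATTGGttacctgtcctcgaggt
Mcm5: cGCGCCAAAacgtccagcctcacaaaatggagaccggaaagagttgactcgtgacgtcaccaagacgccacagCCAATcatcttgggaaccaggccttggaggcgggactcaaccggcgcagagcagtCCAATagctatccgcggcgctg

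Among the classes with at least 50 cells in all 4 libraries, dendritic-like cells had the highest mitotic level in 3 libraries. It was 1099 CPM in the Trp53-intact ADT library, 913 in the Trp53-deleted library and 1271 in the Trp53-deleted ADT library. In the last the interval (1239 to 1304) overlapped that of endothelial-like cells, at 1259 CPM (1224 to 1295). In the Trp53-intact library dendritic-like cells had 1043 CPM, below the 1334 CPM of B-like cells. Macrophage-like cells, which remove debris and present antigen, had 400, 739, 398 and 958 CPM (here and below in the order Trp53-intact, Trp53-intact ADT, Trp53-deleted, Trp53-deleted ADT). Luminal progenitor-like cells, the epithelial class with enough cells in every library (485, 254, 303 and 152), were low, at 202, 83.5, 213 and 326 CPM. S-phase levels were less spread: 472, 618, 617 and 508 CPM in dendritic-like cells, 321, 541, 381 and 528 in macrophage-like cells and 181, 163, 185 and 204 in luminal progenitor-like cells. The highest levels of both phases were in cells found almost only in the Trp53-deleted ADT library: a cluster led by Ptn and Postn (670 of 671 cells in that library; 2462 CPM mitotic, 885 S-phase) and a cluster led by Acp5 and Ctsk (1601 of 1626 cells; 2025 and 829 CPM).

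**Figure D1:**
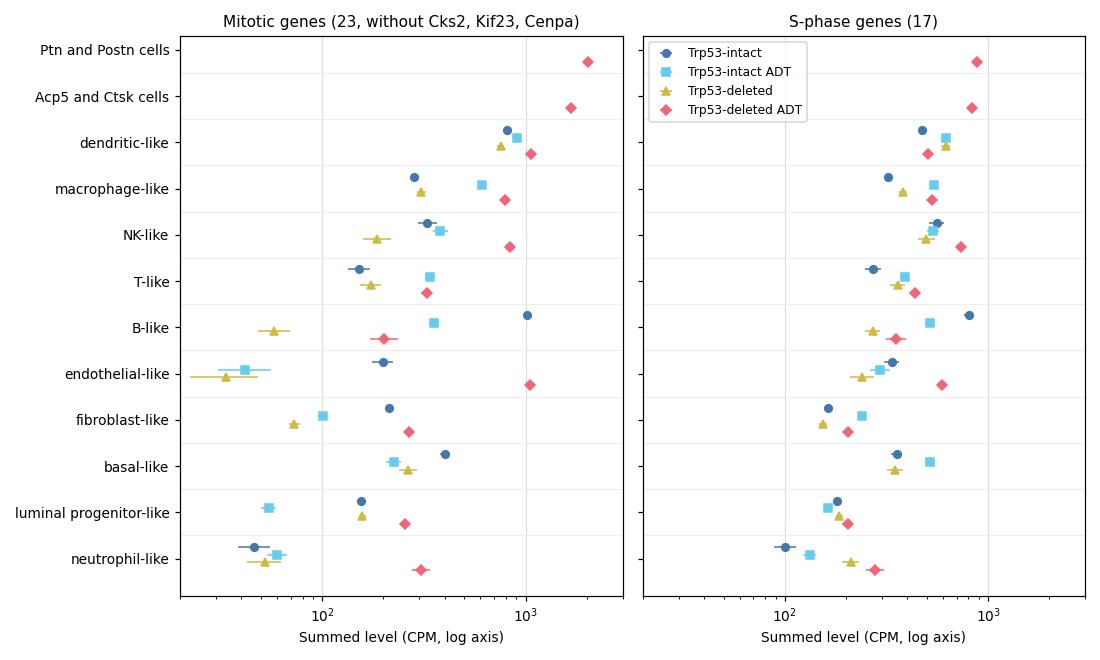
Summed level (CPM, log axis) of 23 mitotic genes (left, without Cks2, Kif23 and Cenpa) and 17 S-phase genes (right) for each cell class with at least 50 cells, 1 point per library with the exact 95% Poisson interval. Mitotic levels run from 33.6 CPM in endothelial-like cells of the Trp53-deleted library to 2022 in the Ptn and Postn cells, and the neutrophil-like point of the Trp53-deleted ADT library (307) lies to the right of the other 3 (46.4 to 60.2).

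The class with the highest level of a member differed between the libraries. The classes ranked were not the same: 17, 14, 13 and 16 had at least 50 cells, with the Ptn and Postn cells only in the last library. Many highest levels overlapped the interval of the second class, such as Cdk1 in the Trp53-intact library (41.7 against 41.6 CPM). No such count was made over all genes, so the counts are descriptions. B-like cells had the highest level of 26 of the 43 members in the Trp53-intact library, dendritic-like cells of 21 in the Trp53-intact ADT library and of 30 in the Trp53-deleted library, and the Ptn and Postn cells of 27 in the Trp53-deleted ADT library. Mki67, the proliferation antigen Ki-67, was highest in B-like cells of the Trp53-intact library (119 CPM) and in dendritic-like cells of the other 3 (103, 121 and 122 CPM).

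By role in dendritic-like cells, where most members could be counted in every library, the mitotic kinase Cdk1 had 32.1, 37.2, 37.2 and 51.8 CPM and its partners Ccnb1 13.9, 24.5, 12.5 and 19.6, Ccnb2 33.5, 36.2, 28.0 and 32.8 and Ccna2 24.0, 33.7, 29.9 and 34.3 CPM. These 4 genes differed between the libraries by less than 2-fold. The small Cdk partner Cks1b had 70.1, 70.9, 71.5 and 97.5 CPM. Of the genes that act on chromosomes and centromeres, Top2a, which untangles DNA, had 118, 142, 107 and 146 CPM, Birc5, of the chromosomal passenger complex, 63.0, 69.1, 51.2 and 105 CPM, and Cenpf 44.9, 43.6, 34.6 and 52.6 CPM. The passenger kinase Aurkb had 20.3, 22.7, 31.7 and 30.4 CPM.

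Of the spindle genes in the same cells, Tpx2 had 24.7, 30.5, 20.6 and 39.0 CPM and the kinesin Kif11 21.9, 20.9, 25.4 and 32.6 CPM, while the spindle pole kinase Aurka had 10.7, 11, 9.95 and 9.49 CPM. Prc1, which bundles the midzone, had 23.2, 29.4, 21.7 and 33.4 CPM and Nusap1 43.7, 43.3, 24.7 and 41.0 CPM. Of the checkpoint and exit genes, Bub1b had 14.1, 19.1, 18.8 and 21.4 CPM, Cdc20 19.5, 22.3, 12.9 and 21.6 CPM and Ube2c 87.0, 82.6, 47.5 and 109 CPM. Other mitotic members at low levels were Gtse1 (2.90, 4.61, 2.21 and 3.45 CPM), Bub1 (7.12, 11.3, 8.48 and 11), Plk1 (8.28, 11.7, 11.4 and 11.4) and Kif20a (8.86, 12.1, 9.95 and 6.69), so that single-gene ratios of these rest on few UMIs.

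Of the S-phase members in dendritic-like cells, the clamp-binding gene Pclaf had 82.2, 117, 100 and 112 CPM and the clamp Pcna 85.0, 99.6, 115 and 75.1 CPM. The 6 helicase genes Mcm2 to Mcm7 lay between 15.1 and 64.5 CPM, with Mcm5 at 31.8, 45, 49.4 and 34.3. Rrm2, the S-phase subunit of ribonucleotide reductase, had 20.6, 33.7, 42.4 and 31.1 CPM, and its partner Rrm1 24.7, 35.1, 42.4 and 40.8 CPM. The licensing and start genes Cdc6, Ccne1 and Ccne2 stayed below 10 CPM, and Gins2, Cdt1 and E2f1 lay between 10.2 and 23.6 CPM. A pseudogene of Pcna (Pcna-ps2) exists, so the Pcna level is uncertain as far as the counting could have split reads between the copies.

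**Figure D2:**
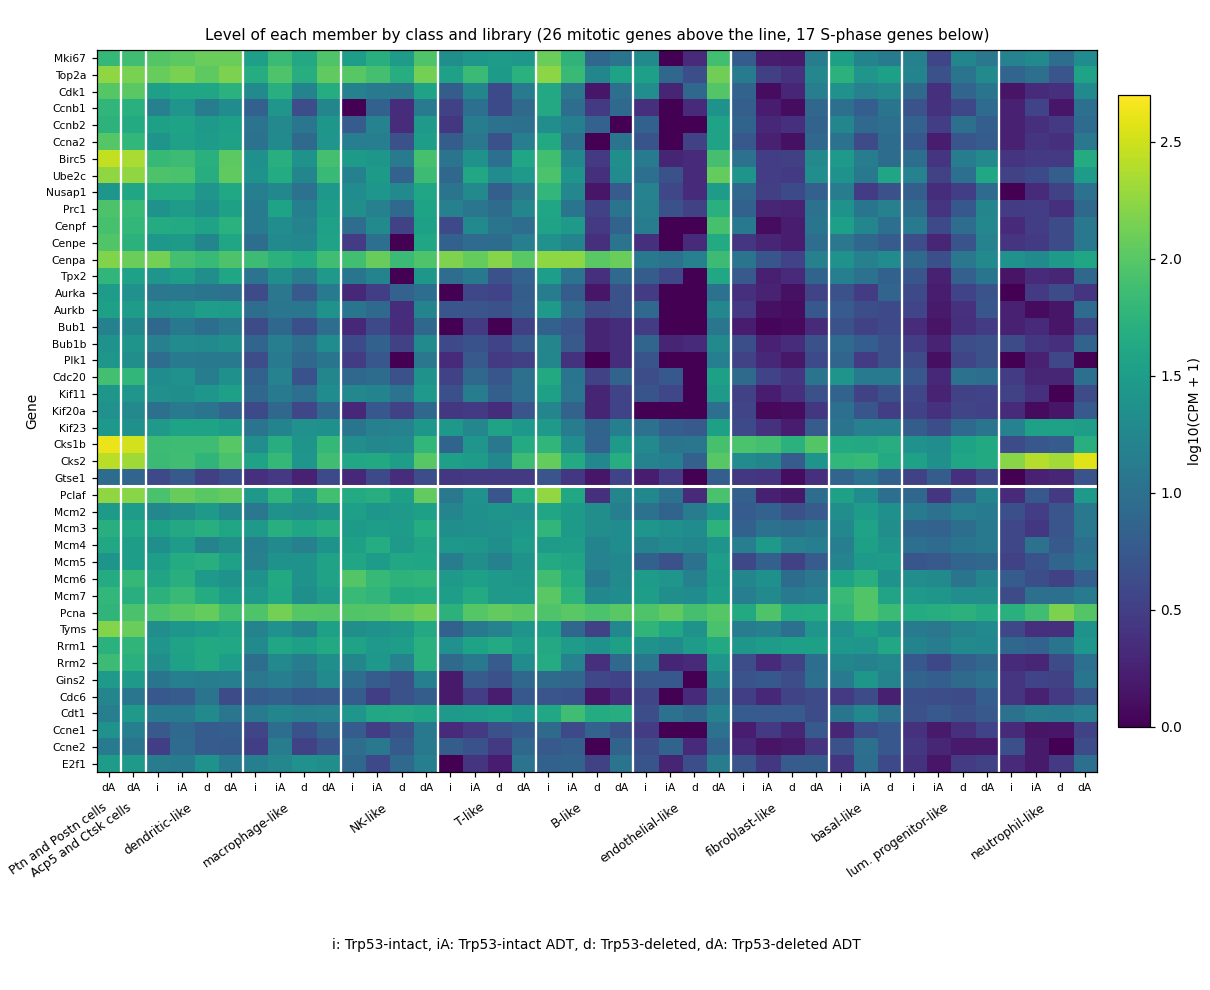
Level of each of the 43 members as log10(CPM + 1), with a class and library in each column and the 26 mitotic genes above the white line. Within each library Cks2 is brightest in the neutrophil-like column (167 to 373 CPM), and it is at 261 CPM in the Ptn and Postn cells. Cenpa is bright across T-like and B-like columns (101 to 175 CPM). The endothelial-like column of the Trp53-deleted ADT library is bright where the other 3 endothelial-like columns are dark.

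Neutrophil-like cells had 252, 365, 324 and 749 CPM of the 26 mitotic genes, more than luminal progenitor-like cells of each library. A large part of it was 1 gene. Cks2, a small Cdk-binding protein, had 167, 252, 211 and 373 CPM, which was 66.4, 69.0, 65.1 and 49.8% of the class's mitotic UMIs, and was higher there than in every other class of at least 50 cells in all 4 libraries. The mitotic kinesin Kif23 had 14.8, 34.5, 33.9 and 30.5 CPM there, and the centromeric histone Cenpa 23.4, 18.3, 27.0 and 38.4 CPM. In T-like cells Cenpa had 148, 115, 160 and 101 CPM, or 41.3, 23, 41.4 and 19.3% of their mitotic UMIs. A level without Cks2, Kif23 and Cenpa, 3 genes chosen after their values were seen, is therefore given beside the level of all 26. With these 23 genes the neutrophil-like background was 46.4, 60.2 and 52.1 CPM in the first 3 libraries and 307 CPM in the Trp53-deleted ADT library.

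The S-phase background of neutrophil-like cells was 101, 133, 211 and 279 CPM, of which Pcna alone had 50.7, 73.0, 146 and 93.9 and Cdt1 9.36, 12.6, 11.6 and 14.9 CPM. Pclaf, by contrast, was at 1.17, 4.57, 1.86 and 27.4 CPM and Mcm5 at 2.34, 3.81, 6.51 and 10.2 CPM. The neutrophil precursor genes Elane, Mpo and Ctsg had at most 0.95 CPM in each library. Other precursor genes checked (Prtn3, Camp, Ltf and Ngp) are not given here, so no absence of dividing precursors is read.

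The higher neutrophil-like level of the Trp53-deleted ADT library was seen in many members. In these cells Birc5 had 44.6 CPM against 1.86 in the Trp53-deleted library, Cks1b 48.5 against 5.11, Top2a 35.2 against 4.18 and Cdk1 18.0 against 1.39. Ptn and Postn, the leading genes of a cluster of that library with high mitotic levels, were at 188 and 227 CPM in the same neutrophil-like cells, and at 1.39 and 3.72 CPM in those of the Trp53-deleted library. The 23 mitotic genes had there a median of 14.5% of their level in the Ptn and Postn cells, close to the share of Postn (14.8%) and above those of Ptn (8.78%) and Col1a1 (9.83%). The same median was 13.3% in luminal progenitor-like cells, 11.6% in fibroblast-like, 15.5% in T-like and 10.8% in B-like cells. Postn stood there at 1.87, 25.98, 8.76 and 9.95%, below the median except in fibroblast-like cells. The median was 39.3% in macrophage-like, 41.4% in NK-like, 54.2% in dendritic-like and 64.4% in endothelial-like cells. In these Postn stood at 4.54, 7.73, 3.29 and 4.62%. The part of RNA from the Ptn and Postn cells in the other classes' levels was not tested.

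By member, neutrophil-like cells of Trp53-deleted mice had 9 of 11 measured mitotic members higher with ADT and 0 lower, where 15.4% of all genes were higher and 14.1% lower. With ADT, Trp53-deleted against Trp53-intact mice had 11 of 14 higher and 0 lower (15.2 and 10.1%). The other comparisons of this class had 1 of 7 higher with ADT in Trp53-intact mice (15.9% of all genes higher, 5.89% lower) and 1 of 5 higher between genotypes without ADT (21.3 and 5.58%), and 0 lower in both. The background itself thus differed in the comparisons that involve the Trp53-deleted ADT library.

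Members were also set one by one against the neutrophil-like level of their own library. In luminal progenitor-like cells 5, 17, 6 and 19 of the 26 mitotic members were at or below the neutrophil-like level, and 3, 5, 2 and 10 of the 17 S-phase members. In fibroblast-like cells these numbers were 6, 19, 20 and 20 mitotic and 4, 3, 6 and 11 S-phase. In macrophage-like cells no more than 3 mitotic members (Cks2 and Kif23 in each library, with Gtse1 in both Trp53-deleted libraries) and 1 S-phase member were, and in dendritic-like cells no more than 2 mitotic members, Cks2 in each library. In endothelial-like cells the numbers were 5, 18, 21 and 1 mitotic members.

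Shares of cycling cells were counted after each cell was thinned to 1000 UMIs, with a cell called positive at 2 or more UMIs of a phase; cells with fewer than 1000 UMIs were left out (22, 24, 139 and 21 neutrophil-like and 109, 232, 28 and 149 macrophage-like cells). With the 23 mitotic genes 0.261, 0.279 and 0.142% of neutrophil-like cells were positive in the first 3 libraries and 5.36% in the Trp53-deleted ADT library. Macrophage-like cells had 3.05, 6.62, 3.25 and 11.2%, and dendritic-like cells 8.28, 8.47, 6.14 and 10.6%. Macrophage-like cells were above neutrophil-like cells in all 4 libraries with intervals apart, and dendritic-like cells in the first 3; in the Trp53-deleted ADT library the dendritic-like (7.58 to 14.3%) and neutrophil-like (3.50 to 7.82%) intervals overlap. Luminal progenitor-like cells had 7 of 484 cells (1.45%), 0 of 254 (3 counts would be 1.18%), 5 of 302 (1.66%) and 6 of 152 (3.95%). The last stood next to 5.36% of neutrophil-like cells in its library. NK-like cells had 2.04, 2.15, 1.28 and 6.52% and T-like cells 1.90, 1.14, 1.64 and 3.67%.

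The S-phase genes gave 0.783, 1.12, 1.56 and 3.65% of neutrophil-like cells, 4.30, 9.22, 5.52 and 10.2% of macrophage-like cells and 7.41, 7.41, 7.89 and 6.59% of dendritic-like cells. In basal-like cells, the stem-like outer layer of the gland, 5.44, 3.57 and 2.47% were positive for mitotic and 10.9, 8.93 and 7.41% for S-phase genes in the first 3 libraries, with intervals that overlap one another. Without thinning the shares of the following classes rose with depth within the Trp53-deleted ADT library. There 48.3% of macrophage-like (median 10293 UMIs), 17% of neutrophil-like (median 2608 UMIs) and 54.6% of luminal progenitor-like cells (median 23781 UMIs) had 2 or more mitotic UMIs. The unthinned macrophage-like shares were 13.4, 17.7 and 11.8% in the other 3 libraries, at medians of 10221.5, 1456 and 6318.5 UMIs. Those of neutrophil-like cells were 2.03, 2.13 and 1.30%, at medians of 2627 to 3535 UMIs. Between libraries the shares thus did not follow depth.

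**Figure D3:**
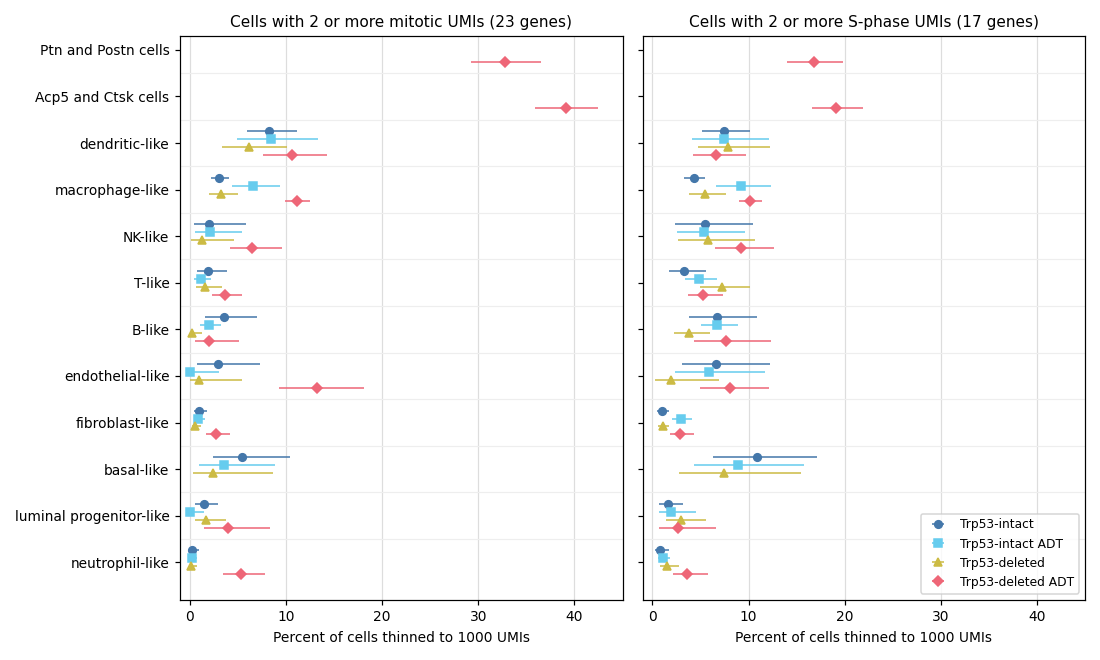
Percent of cells with 2 or more UMIs of 23 mitotic genes (left) or 17 S-phase genes (right) after thinning to 1000 UMIs, by class and library, with exact 95% Clopper-Pearson intervals. The Ptn and Postn cells (32.8%) and the Acp5 and Ctsk cells (39.1%) lie to the right in the mitotic panel, endothelial-like cells reach 13.3% in the Trp53-deleted ADT library, and neutrophil-like cells lie below 0.3% in the other 3 libraries.

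At full depth the mitotic UMIs were concentrated in few cells in some classes and spread out in others. Cells with 5 or more of these UMIs made up 5.38% of B-like cells of the Trp53-intact library and held 96.4% of the class's UMIs of the 23 genes. In the Trp53-deleted ADT library such cells were 22.1% of endothelial-like cells and held 94.2%, and 14.9% of macrophage-like cells and held 86.0%. In neutrophil-like cells of the same library they were 1.03% and held 8.67%, and in B-like cells 0.51% held 3.05%, at lower depths (medians of 2608 and 3805 UMIs). In these 2 classes most mitotic UMIs were in cells with fewer than 5 of them.

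Members were also read against one another within cells. Macrophage-like cells of all libraries, thinned to 1000 UMIs, were split by their UMIs of the other mitotic genes among the 23, and a gene's level in cells with 2 or more was set against that in cells with none. Mki67 was 25.3-fold higher (18.0 to 35.9) in the first, Top2a 27.6-fold (21.1 to 36.3), Ccnb2 64.3-fold (33.6 to 135) and Nusap1 59.6-fold (30.9 to 126). Of the S-phase genes, Pclaf was 25.6-fold (18.2 to 36.4) and Rrm2 28.0-fold higher (14.3 to 57.9), Mcm5 4.59-fold (2.89 to 7.12) and Pcna 2.20-fold (1.67 to 2.87). Cks2 and Cenpa were closer to the S-phase genes, at 5.87-fold (4.49 to 7.62) and 4.25-fold (3.23 to 5.53), whereas Kif23 was 26.8-fold higher (16.2 to 45.7). In neutrophil-like cells Cks2 was 1.64-fold higher (0.841 to 2.87) in cells with 2 or more other mitotic UMIs (32) than with none (3149). Of these 32 cells 25 were from the Trp53-deleted ADT library, so the ratio also mixes libraries. Kif23 and Cenpa had no UMI in the 32 cells. At their low levels in this class few would be expected in so few thinned cells.

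**Figure D4:**
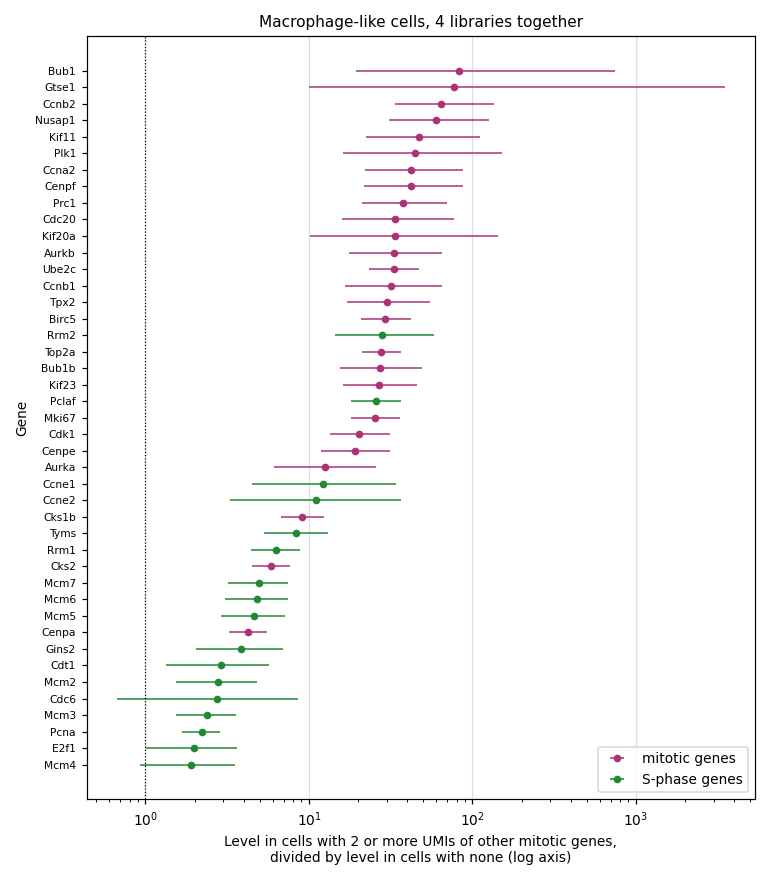
For each member, its level in macrophage-like cells with 2 or more UMIs of other mitotic genes divided by its level in cells with none (log axis), all 4 libraries together and cells thinned to 1000 UMIs, with 95% intervals of counting error. Mitotic genes lie between 4.25-fold (Cenpa) and 82.9-fold (Bub1), and among S-phase genes Rrm2 and Pclaf stand with the mitotic genes while Pcna, E2f1 and Mcm4 lie near 2-fold.

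Cells positive for both phases were a minority. In the Trp53-deleted ADT library, 102 of 2490 thinned macrophage-like cells were positive for both, 176 for mitotic genes only and 151 for S-phase genes only. The mitotic-positive macrophage-like cells of this library had a median of 12520 UMIs against 10663.5 in the others, doublet scores of 0.0482 against 0.0370, and 238 against 265 CPM of Ptn, Postn and Col1a1 together. Their own macrophage markers stood at 35398 against 38910 CPM.

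With all luminal progenitor-like cells counted, the ADT and no-ADT libraries differed in opposite directions in the 2 genotypes. In Trp53-intact mice the mitotic level was 83.5 CPM with ADT against 202 without, a ratio of 0.414 (0.385 to 0.445), and 0.353 without Cks2, Kif23 and Cenpa. Of the 26 mitotic members, all with at least 20 UMIs over both libraries, 13 were at least 1.5-fold lower and 0 higher, against 5.97% of all genes lower and 6.13% higher. Their median log2 ratio was -0.59, against 0.04 over all genes measured. The largest differences were in Ube2c (2.36 against 14.9 CPM), Mki67 (2.65 against 14.4), Top2a (3.69 against 15.4) and Cenpf (2.93 against 11.8). Ccnb1 was at 1.51 against 3.91 CPM. The S-phase level was 163 against 181 CPM (0.899-fold), Mcm5 was at 4.63 against 4.22 and Rrm2 at 2.84 against 4.49 CPM, and only Pclaf of the 17 S-phase members was past 1.5-fold (1.70 against 6.95 CPM).

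This mitotic difference in Trp53-intact mice depended on how cells were assigned: the log2 ratio was -1.27, but -0.039 with a separate clustering of every library, which put 362 cells at 87.1 CPM in this class without ADT, -0.14 at a finer clustering and -0.65 in thinned cells. With ADT 17 of the 26 mitotic members were at or below the neutrophil-like level, so the lower values lie at background.

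In Trp53-deleted mice the mitotic level of luminal progenitor-like cells was 326 CPM with ADT against 213 without (1.53-fold, 1.44 to 1.62), and 255 against 157 CPM for the 23 genes. Of the 26 members 8 were higher and 0 lower (6.08 and 6.82% of all genes), with a median log2 ratio of 0.27 against -0.07 over all genes, led by Ube2c (39.1 against 8.59 CPM), Prc1 (16.0 against 4.55), Cenpe (14.8 against 4.04) and Nusap1 (7.78 against 2.16). Mki67 was lower, at 10.9 against 16.5 CPM, within 1.5-fold after the pseudocount, Top2a was 17.9 against 9.88 and Ccnb1 7.78 against 2.81 CPM. The S-phase level was 204 against 185 CPM (1.10-fold), with Pclaf (15.4 against 5.99 CPM) the 1 member past 1.5-fold. In the ADT library of this genotype the neutrophil-like level of the 23 genes was 307 CPM, above the luminal progenitor-like level. When cells with any Ptn or Postn UMI were left out 44 cells remained there, at 88.0 CPM of the 26 genes. The same cut left 277 cells at 178 CPM in the library without ADT, so the order of the libraries was then reversed. With only 44 cells in the ADT library no ratio is given.

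Between genotypes without ADT, luminal progenitor-like cells had 213 against 202 CPM mitotic (1.06-fold) and 185 against 181 CPM S-phase (1.03-fold). The mitotic log2 ratio of 0.08 was 0.97 in thinned cells and 0.73 at the finer clustering. Of the mitotic members 0 were past 1.5-fold in either direction, and of the S-phase members only Mcm6 was, lower in Trp53-deleted mice (9.88 against 20.1 CPM), where 3.28% of all genes were higher and 3.03% lower. With ADT the Trp53-deleted library had 326 against 83.5 CPM (3.91-fold, 3.60 to 4.24), and 20 of 25 measured mitotic members were higher and 0 lower (5.04 and 2.99% of all genes), led by Ube2c, Birc5 (17.5 against 1.61 CPM), Cenpe and Prc1. The S-phase level was 1.26-fold, with Pclaf and Rrm2 (6.81 against 2.84 CPM) past 1.5-fold. The neutrophil-like level of the 23 genes was 307 against 60.2 CPM in the same libraries. Without cells holding Ptn or Postn UMIs the luminal progenitor-like mitotic level was 88.0 CPM (44 cells) in the Trp53-deleted ADT library. It was 78.0 CPM (228 cells) in the Trp53-intact ADT library, and with so few cells no ratio is given.

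Basal-like cells were too few (18) in the Trp53-deleted ADT library. In Trp53-intact mice their mitotic level was 316 CPM with ADT against 496 without (0.637-fold), and 12 of 24 measured members were lower and 0 higher (5.45 and 8.12% of all genes), with Mki67 at 15.5 against 32.9, Top2a at 24.8 against 53.1 and Ccnb1 at 5.44 against 9.01 CPM. As the mean of per-cell CPM the mitotic log2 ratio was 0.0096, with the sign reversed, so no direction is read. Their S-phase level was 516 against 354 CPM (1.46-fold), with 7 of 15 members higher, 1 lower, Mcm5 at 27.2 against 15.2, Rrm2 at 14.4 against 16.5 and Pclaf at 19.4 against 33.9 CPM. Between genotypes without ADT 11 of 25 measured mitotic members were lower in Trp53-deleted mice and 1 higher (6.07 and 27.8%), at 340 against 496 CPM. Luminal-like cells were numerous only in the Trp53-intact library (318 cells), at 471 CPM mitotic and 289 CPM S-phase.

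Macrophage-like cells had higher levels of both phases with ADT in both genotypes. In Trp53-intact mice the mitotic level was 739 against 400 CPM (1.85-fold, 1.77 to 1.93) and the S-phase level 541 against 321 CPM (1.69-fold). Of the 26 mitotic members 17 were higher and 0 lower (5.39 and 4.63% of all genes), with a median log2 ratio of 0.76 against 0.07 over all genes, led by Ccnb1 (24.6 against 5.95 CPM), Prc1 (35.6 against 12), Cdk1 (48.4 against 18.3) and Cks1b (47.0 against 20). Mki67 was at 67.8 against 32.6 and Top2a at 89.3 against 46.4 CPM. Of the 17 S-phase members 9 were higher and 0 lower, led by Ccne2 (12.6 against 2.19 CPM), Pclaf (57.6 against 26.8), Rrm1 (38.8 against 18.6) and Mcm2 (23 against 10.6), with Mcm5 at 23.6 against 14.0 and Rrm2 at 17.8 against 8.52 CPM.

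In Trp53-deleted mice the macrophage-like mitotic level was 958 with ADT against 398 CPM without (2.41-fold, 2.30 to 2.52) and the S-phase level 528 against 381 CPM (1.39-fold). Of the 26 mitotic members 23 were higher and 0 lower (6.07 and 14.8% of all genes), with a median log2 ratio of 0.94 against -0.12 over all genes, led by Ube2c (67.3 against 16.3 CPM), Birc5 (78.9 against 23.2), Cks2 (73.1 against 25) and Ccnb1 (16.4 against 3.34). Mki67 was at 88.7 against 41.9 and Top2a at 109 against 46.6 CPM. Of the S-phase members only Pclaf (74.7 against 27.1 CPM) and Tyms (33.0 against 15.3) were past 1.5-fold, while Mcm5 was at 35.3 against 23.2 and Rrm2 at 20.9 against 13 CPM. Between the same libraries the 23 genes were at 307 against 52.1 CPM in neutrophil-like cells and at 790 against 307 CPM in macrophage-like cells, and without cells holding Ptn or Postn UMIs the log2 ratio of the 26 genes was 1.14 against 1.27.

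Different clusters made up the macrophage-like class in different libraries. A cluster led by Ccl8, Clec10a and Pf4 held 1041 of 1550 and 408 of 644 cells without ADT, a shallow one with Cx3cr1 among its leading genes 385 of 655 in the Trp53-intact ADT library, and one led by Ms4a4c, Ms4a6c and Lyz2 2018 of 2639 in the Trp53-deleted ADT library. The thinned mitotic share was 0.875, 1.61, 2.49 and 0% in the Ccl8 cluster and 6.76, 5.07, 4.84 and 9.73% in the Ms4a4c cluster. In the Gpnmb, Mmp12 and Trem2 cluster it was 8.57, 11.1 and 16.8% in the 3 libraries with 50 or more of its cells. In Trp53-intact mice the 23-gene level with against without ADT was 81.2 against 133 CPM in the Ccl8 cluster, 330 against 572 in the Ms4a4c cluster, 656 against 586 in the Cx3cr1 cluster and 1210 against 667 in the Gpnmb cluster. In Trp53-deleted mice it was 164 against 277 CPM in the Ccl8 cluster and 605 against 248 in the Ms4a4c cluster. The clusters thus did not move together, and the make-up of the class moved with its level.

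Between genotypes macrophage-like cells differed less: 0.994-fold mitotic and 1.19-fold S-phase without ADT, where 2 mitotic members were higher (Kif23 and Cenpe), 1 lower (Cenpa), and 9.46 and 3.25% of all genes were, and 1.30-fold and 0.976-fold with ADT, where 4 were higher (Aurkb, Cenpe, Cenpf and Birc5) and 0 lower (3.33 and 5.78%).

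**Figure D5:**
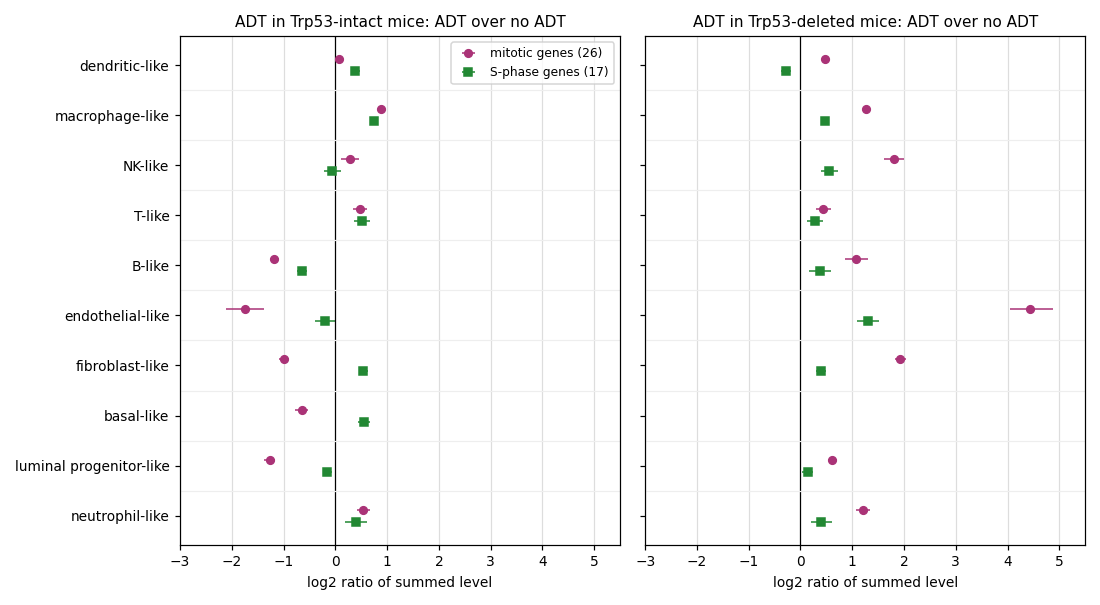
Log2 ratio of the summed level with ADT over without ADT for 26 mitotic and 17 S-phase genes, by class, in Trp53-intact mice (left) and Trp53-deleted mice (right), with 95% intervals of counting error only. Macrophage-like points lie right of 0 in both panels, while endothelial-like, fibroblast-like, B-like and luminal progenitor-like mitotic points lie left of 0 in the left panel and right of it in the right panel.

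Dendritic-like cells were at 1.05-fold mitotic and 1.31-fold S-phase with ADT in Trp53-intact mice and at 1.39-fold and 0.824-fold in Trp53-deleted mice. In Trp53-intact mice 1 mitotic member was higher (Ccnb1) and 1 lower (Cenpa), where 5.35% of all genes were higher and 3.56% lower. In Trp53-deleted mice 5 were higher, with Ube2c (109 against 47.5 CPM), Cenpe, Birc5 and Tpx2 leading, and 0 lower (6.03 and 14.1%), and the S-phase members Cdc6, E2f1 and Cdt1 were lower. With ADT 0 mitotic members differed between genotypes and 2 S-phase members (Mcm7 and Mcm6) were lower in Trp53-deleted mice, where 5.22% of all genes were higher and 5.15% lower. Without ADT 3 mitotic members (Cenpa, Ube2c and Nusap1) were lower in Trp53-deleted mice and 4 S-phase members higher (Rrm2, E2f1, Rrm1 and Cdc6), where 4.25% of all genes were lower and 16.9% higher.

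Endothelial-like cells, which line vessels, showed the widest range. They had 234, 69.9, 57.9 and 1259 CPM of the mitotic genes and 336, 294, 240 and 591 CPM of the S-phase genes, in 147, 137, 111 and 249 cells. Mki67 was at 18.6, 0, 1.16 and 75.5 CPM, Top2a at 32.5, 7.26, 3.47 and 130, Ccnb1 at 1.33, 0, 1.16 and 23.4, Pclaf at 17.3, 9.08, 1.16 and 82.5, Mcm5 at 5.97, 3.63, 9.26 and 31.8 and Rrm2 at 10.6, 0.908, 1.16 and 24.7 CPM. Each of these 6 genes was highest in the Trp53-deleted ADT library. Thinned mitotic shares were 4 of 136 cells (2.94%), 0 of 119 (3 counts would be 2.52%), 1 of 101 (0.99%) and 33 of 249 (13.3%).

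With ADT in Trp53-deleted mice the endothelial-like mitotic level was 21.8-fold higher (16.5 to 29.3) and the S-phase level 2.47-fold, with 26 of 26 mitotic members and 13 of 17 S-phase members past 1.5-fold (13.8% of all genes higher, 23.4% lower). Many of these passed the count minimum only through the ADT library. Ube2c was at 114 against 1.16 CPM, Birc5 at 78.6 against 1.16 and Tyms at 83.1 against 23.2 CPM. The mitotic-positive cells of that library had 220 CPM of Ptn, Postn and Col1a1 against 299 CPM in the other endothelial-like cells, 6096 against 5940 CPM of endothelial markers, and a median of 14062 against 8009.5 UMIs. Without cells holding Ptn or Postn UMIs the log2 ratio was 4.57 against 4.44, and it was 3.78 in thinned cells and 3.86 as the mean of per-cell CPM. In Trp53-intact mice the mitotic ratio was 0.299 (log2 -1.74, or -1.02 as the mean of per-cell CPM), with 6 of the 9 measured mitotic members lower and 0 higher, where 6.78% of all genes were lower and 10.0% higher. Between genotypes the ratio was 0.248 without ADT, with 6 of 8 lower and 0 higher (6.87 and 24.6%), and 18.0 with ADT, with 26 of 26 higher and 0 lower (17 and 13.1%).

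Fibroblast-like cells were low throughout, at 244, 122, 81.3 and 310 CPM mitotic and 164, 238, 154 and 204 CPM S-phase. With ADT 14 of 25 measured mitotic members were lower in Trp53-intact mice (0 higher; 6.14 and 7.05% of all genes) and 18 of 23 higher in Trp53-deleted mice (0 lower; 8.77% higher and 10.3% lower). Cks1b was at 84.8, 77.6, 51.8 and 94.9 CPM there. Mki67 was far lower, at 5.18, 0.631, 0.564 and 12.7 CPM, as were Top2a (12.0, 2.29, 1.45 and 16.6) and Pclaf (5.73, 0.71, 0.484 and 8.30). Mcm5 was at 2.86, 5.76, 2.42 and 5.01, Rrm2 at 3.31, 1.10, 2.42 and 8.44 and Ccnb1 at 5.62, 0.631, 0.242 and 6.87 CPM. Between genotypes 15 of 23 were lower in Trp53-deleted mice without ADT (0 higher; 5.96 and 10.2%), and 18 of 24 higher with ADT (0 lower; 8.27 and 6.66%). In the Trp53-deleted ADT library 20 of 26 mitotic members were at or below the neutrophil-like level. The clusters behind the class changed too: one led by Sult1e1 and Col6a5 held 1018 and 1310 cells without ADT, and one led by Apod and Sfrp1 1022 and 456 with ADT.

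Among lymphocytes, B-like cells had 1334, 587, 183 and 386 CPM of the mitotic genes. Mki67 was at 119, 55.6, 6.93 and 9.84 CPM, Top2a at 170, 64.4, 16.2 and 35.7, Ccnb1 at 41.1, 8.53, 1.85 and 7.38 and Pclaf at 183, 39.7, 1.39 and 16.0 CPM. Mcm5 was at 44, 36.5, 14.8 and 17.2 and Rrm2 at 45.2, 14.7, 1.39 and 7.38 CPM, and the Trp53-intact library was highest for all 6. Of 24 measured mitotic members 24 were lower in Trp53-deleted than in Trp53-intact mice without ADT, and 10 of 13 S-phase members (10.2% of all genes lower, 23.2% higher). With ADT 6 of 22 were lower in Trp53-deleted mice and 0 higher (12.5 and 7.77%), where the log2 ratio of the summed level turned to 0.062 as the mean of per-cell CPM. With against without ADT, 20 of 25 were lower and 0 higher in Trp53-intact mice (7.5 and 15.9%), and 5 of 7 higher and 0 lower in Trp53-deleted mice (9.82 and 16.6%). Of the 26 mitotic members 14 were at or below the neutrophil-like level in the Trp53-deleted library and 20 in the Trp53-deleted ADT library. In the latter the 23 genes were at 202 CPM in B-like and 307 CPM in neutrophil-like cells. The thinned mitotic shares of B-like cells were 3.59, 1.97, 0.224 and 2.05%. In the Trp53-intact library the 8 positive B-like cells had a median of 38896.5 UMIs against 5611 in the others, a doublet score of 0.0379 against 0.0127 and 1923 against 4473 CPM of B-cell markers, and the part of doublets in this level was not tested.

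NK-like cells, cytotoxic lymphocytes, had 455, 554, 300 and 1050 CPM of mitotic and 557, 536, 497 and 732 CPM of S-phase genes. With ADT in Trp53-deleted mice 21 of 23 measured mitotic members were higher and 0 lower (9.58 and 19.9% of all genes), with Mki67 at 89.6 against 29.3, Top2a at 136 against 47.6 and Pclaf at 110 against 33.0 CPM. Ccnb1 was at 12.3 against 1.22, Rrm2 at 51.2 against 14.6 and Mcm5 at 38.9 against 40.3 CPM. In Trp53-intact mice the ADT library had 5 of 17 higher and 0 lower (11.8 and 5.35%). Between genotypes 4 of 11 were lower and 0 higher without ADT (5.91 and 27.1%), and 21 of 24 higher and 0 lower with ADT (10.1 and 8.51%).

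T-like cells had 358, 499, 385 and 524 CPM, and 151, 337, 174 and 326 CPM without Cks2, Kif23 and Cenpa. In Trp53-intact mice 13 of their 22 measured mitotic members were higher with ADT and 0 lower (7.16 and 11.1%), whereas the thinned share was 1.14 against 1.90%, so no order of cycling T-like cells is read. In Trp53-deleted mice 10 of 20 were higher with ADT and 1 lower (9.77 and 19.5%). In the Trp53-deleted ADT library 14 of the 26 mitotic members were at or below the neutrophil-like level. There the 23 genes were at 307 CPM in neutrophil-like and 326 CPM in T-like cells. Between genotypes 2 of 13 measured mitotic members were higher and 2 lower without ADT (22.2 and 9.28%), and 3 of 23 higher and 1 lower with ADT (10.5 and 4.91%). Their Mki67 was at 21.1, 26.5, 29.0 and 26.6 CPM, Top2a at 33.9, 68.6, 28.4 and 52.1 and Pclaf at 11.1, 22.5, 4.32 and 45.4 CPM. Ccnb1 was at 2.34, 8.66, 3.08 and 7.50, Mcm5 at 12.9, 20.6, 14.2 and 23.6 and Rrm2 at 7.60, 11.2, 4.93 and 19.1 CPM.

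The Ptn and Postn cells of the Trp53-deleted ADT library had a median of 80090 UMIs per cell, scored on fibroblast markers and were kept apart after the clusters were seen. Top2a stood at 178 CPM, Mki67 at 61.4, Ccnb1 at 59.2, Cdk1 at 95.5, Ube2c at 177, Birc5 at 283 and Cks1b at 416 CPM. Of the S-phase genes Pclaf had 180, Tyms 157, Rrm2 70.5, Mcm5 23.7 and Cdc6 15.8 CPM. Mki67 was thus lower than in dendritic-like cells of the same library (122 CPM) while Cks1b was higher (416 against 97.5). Of the 26 mitotic members Cks2 and Kif23 were at or below the neutrophil-like level, and of the S-phase members Pcna and Cdt1. Thinned, 217 of 661 cells (32.8%) were positive for mitotic genes, of which 69 were also positive for S-phase genes, and 42 for S-phase genes only.

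The Acp5 and Ctsk cells of that library were shallow (median 1112 UMIs), and 707 of 1601 had too few UMIs for thinning. Of the rest 350 of 894 (39.1%) were mitotic-positive and 19.1% S-phase-positive. Top2a was at 141 CPM, Mki67 at 74.2, Ccnb1 at 50.6, Pclaf at 163, Mcm5 at 31.9 and Rrm2 at 50.4 CPM. The share was above that of the Ptn and Postn cells while the level was below it, so no order between the pair is read.

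The balance of the phases differed between classes. S-phase UMIs per mitotic UMI of the 23 genes were 0.44 in the Ptn and Postn cells and 0.49 in the Acp5 and Ctsk cells, and 0.581, 0.678, 0.818 and 0.476 in dendritic-like cells. Macrophage-like cells had 1.13, 0.89, 1.24 and 0.669, luminal progenitor-like cells 1.17, 2.98, 1.18 and 0.801, and endothelial-like cells 1.69, 7.04, 7.14 and 0.559. Neutrophil-like cells had 2.17, 2.20, 4.05 and 0.908, and Pcna was their most abundant S-phase member. In the 5 of these classes measured in all 4 libraries the lowest ratio was in the Trp53-deleted ADT library, but B-like cells (0.792, 1.45, 4.65 and 1.75) and T-like cells (1.79, 1.15, 2.06 and 1.33) had theirs in a Trp53-intact library.

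Cell cycle genes outside the 43, from fixed lists of other mitotic and replication genes, were counted the same way. In macrophage-like cells with ADT in Trp53-intact mice 21 of 45 measured other mitotic genes were higher and 0 lower, as were 13 of 34 replication genes (5.39% of all genes higher, 4.63% lower), led by the histone-methylation reader Uhrf1 (14.4 against 4.45 CPM). In Trp53-deleted mice 18 of 46 were higher and 1 lower, with the passenger subunit Cdca8 at 36.2 against 9.24 CPM, and 11 of 34 replication genes higher (6.07% of all genes higher, 14.8% lower). In luminal progenitor-like cells with ADT in Trp53-intact mice 6 of 41 other mitotic genes were lower and 0 higher (5.97 and 6.13% of all genes), with the passenger subunit Incenp at 4.54 against 14.4 CPM, while of the replication genes Lig1, the replicative DNA ligase, was higher (64.9 against 27.4 CPM). In endothelial-like cells with ADT in Trp53-deleted mice 41 of 43 other mitotic and 22 of 32 replication genes were higher and 0 lower (13.8 and 23.4% of all genes).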

How the data were processed

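The 4 libraries were deposited as whole-number UMI counts per gene and cell barcode. Per the submitters' processing notes the authors used Cell Ranger 2.1.1 and the mm10 genome, while the deposited matrix headers name software version 3.1.0. The deposited counts were used as they are, with no count of reads behind them, so the depth is known in UMIs only (58088678 to 148030357 per library). The rest of the genotype shared by all groups is not reported here.

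Cells were barcodes with 500 or more UMIs in 200 or more genes, up to 20% of them mitochondrial, and the highest doublet scores (0.008 of barcodes per 1000 barcodes) were left out, 307 to 789 cells per library, since Scrublet's own threshold marked 0 to 2 cells. This left 28999 of 36326 barcodes. Libraries were clustered together with scanpy 1.11.5 and igraph 0.11.9 (2000 variable genes without cell cycle genes, 40 principal components, 20 neighbours, Leiden resolution 1), giving 32 clusters, of which 5 stayed unnamed. UMIs were summed per class and library where a class had at least 50 cells. Ratios have conditional exact binomial intervals, levels Poisson and shares Clopper-Pearson intervals (scipy 1.17.1). Beside a share of 0 the value for 3 counts is given, which lies below the Clopper-Pearson upper limit. The ratio and thinning code was checked on simulated data. No test across samples was possible with 1 library per group.

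The 43 members and all gene lists were chosen with earlier results of these data known. Mki67, Top2a, Ccnb1, Pclaf, Mcm5 and Rrm2 were named in the main classes, and for each class and comparison up to 4 measured members with the largest ratio past 1.5-fold each way, and up to 3 of each other list. The level without Cks2, Kif23 and Cenpa was added after their values were seen. Promoter windows were taken from RefSeq (GRCm38.p6). Alternatives covered cell filters, doublets, clustering, thinning, scaling, the background and members left out.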

Additional observations from a re-analysis of the deposited data

Results flagged for a closer look

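In 7 cases the summed mitotic level differed in opposite directions, past 1.5-fold each way, under the same contrast in the other pair of libraries. All 7 are differences of log2 ratios over the same 4 libraries, so the ADT and genotype forms of a class are the same value, and the difference was not tested, since each group has 1 library. In endothelial-like cells the log2 ratio of ADT was -1.74 in Trp53-intact and 4.44 in Trp53-deleted mice, a difference of 6.18, and the log2 ratio of Trp53 deletion was -2.01 without and 4.17 with ADT, again a difference of 6.18. In fibroblast-like cells the ADT ratios were -0.999 and 1.93, a difference of 2.93, and the ratios of Trp53 deletion -1.59 and 1.34, also a difference of 2.93. In B-like cells the ADT ratios were -1.18 and 1.08, a difference of 2.27. In luminal progenitor-like cells they were -1.27 and 0.61, a difference of 1.89. Without cells holding Ptn or Postn UMIs the levels of this class in Trp53-deleted mice were 88.0 CPM with ADT (44 cells) and 178 CPM without. In NK-like cells the ratios of Trp53 deletion were -0.60 without and 0.92 with ADT, a difference of 1.52. The neutrophil-like level of 23 mitotic genes was 307 CPM in the Trp53-deleted ADT library and 46.4 to 60.2 CPM in the others. It was higher in that library, as in the positive ratios. In the negative ratios it went the other way. It was 60.2 against 46.4 CPM with ADT in Trp53-intact mice, and 52.1 against 46.4 CPM between genotypes without ADT. Its part in these differences was not tested.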

How the results depend on the processing

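No paired analysis was possible because each group is 1 library, and no replicate could be left out. Of 863 recomputed log2 ratios of summed levels over 84 results, 586 stayed within counting error of the value reported, 273 moved past it and 4 changed sign. The cause was not tested for any of them. Changed signs were the B-like S-phase ratio of ADT in Trp53-intact mice (0.32 as the mean of per-cell CPM and 0.16 in thinned cells), the B-like mitotic ratio of Trp53 deletion with ADT (0.062, mean of per-cell CPM) and the basal-like mitotic ratio of ADT in Trp53-intact mice (0.0096, mean of per-cell CPM).

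For luminal progenitor-like mitotic genes the log2 ratio of ADT in Trp53-intact mice (-1.27) was -1.44 with at most 10% mitochondrial UMIs, -0.65 in cells thinned to 1000 UMIs, -1.15 with doublets kept, -0.039 with separate clustering of the libraries, -0.91 as the mean of per-cell CPM, -0.14 at resolution 2 and -1.50 without Cks2, Kif23 and Cenpa. That of ADT in Trp53-deleted mice (0.61) was 0.30 thinned, 0.78 with doublets kept, 0.37 as the mean of per-cell CPM and 1.05 at resolution 2. That of Trp53 deletion without ADT (0.08) was 0.23 with at most 10% mitochondrial UMIs, 0.97 thinned, -0.033 with doublets kept, 0.32 as the mean of per-cell CPM and 0.73 at resolution 2, and with ADT (1.97) it was 2.36, for the mitochondrial limit, 1.60 as the mean of per-cell CPM and 2.22 without the 3 genes. For S-phase genes the ratio of ADT in Trp53-intact mice (-0.15) was -0.25 with the mitochondrial limit, 0.069 thinned, -0.029 with separate clustering, 0.054 as the mean of per-cell CPM, -1.42 with the neutrophil-like level taken off and -0.031 at resolution 2. The others were 0.30 at resolution 2 for ADT in Trp53-deleted mice (0.14), 0.18 with the mitochondrial limit for Trp53 deletion without ADT (0.04), and 0.48 with that limit, 0.033 thinned and 0.13 as the mean of per-cell CPM for Trp53 deletion with ADT (0.33).

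The macrophage-like mitotic ratio of ADT in Trp53-intact mice (0.89) was 0.59 thinned, 0.80 with doublets kept, 1.19 with separate clustering, 0.63 as the mean of per-cell CPM, 1.34 with the neutrophil-like level taken off, 0.95 at resolution 2, 1.10 without the 3 genes and 1.02 without the shallow Cx3cr1 cluster. In Trp53-deleted mice (1.27) it was 1.198 with the mitochondrial limit, 1.39 with separate clustering, 1.503 with the neutrophil-like level taken off, 1.12 at resolution 2, 1.36 without the 3 genes and 1.14 without cells holding Ptn or Postn UMIs. The endothelial-like ratio of ADT in Trp53-intact mice (-1.74) was -1.36 with the mitochondrial limit, -1.02 as the mean of per-cell CPM and -2.25 without the 3 genes, and in Trp53-deleted mice (4.44) it was 3.78 thinned, 3.86 as the mean of per-cell CPM and 4.98 without the 3 genes. Leaving out the 3 genes, the shallow Cx3cr1 cluster or the Ptn or Postn holding cells was chosen after seeing the data.

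No ratio was computed for luminal progenitor-like or endothelial-like mitotic genes with the neutrophil-like level taken off, since levels went below 0, nor with separate clustering where a library then had no cells of the class (luminal progenitor-like in both Trp53-deleted libraries, endothelial-like in the Trp53-intact ADT library). The shallow classes and the members with the fewest UMIs are the least precise.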

Other observations

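Levels of Cdk inhibitors and D-type cyclins outside the 43 genes are given as values, named after they were seen. Cdkn1a, which encodes p21 and is a p53 target, was higher in neutrophil-like cells (820, 666, 865 and 712 CPM) than in the cycling Ptn and Postn cells (27.3 CPM), and in fibroblast-like cells it was 174, 338, 78.5 and 133 CPM. Dendritic-like cells, which had high mitotic levels in every library, had 350, 474, 280 and 360 CPM of Cdkn1a. Cdkn2a, the locus of p16 and p19ARF, stood at 1865 CPM in the Ptn and Postn cells and 906 CPM in the Acp5 and Ctsk cells. In luminal progenitor-like cells Cdkn2a was at 78.1, 150, 443 and 396 CPM, and in neutrophil-like cells at 3.90, 6.10, 13.9 and 154 CPM. The mitotic transcription factor gene Foxm1 was at 6.24, 7.45, 9.58 and 12.9 CPM in dendritic-like cells and at 0.39, 0.953, 0 and 3.91 CPM in neutrophil-like cells.

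Among D-type cyclins, which act in G1, Ccnd2 was high in NK-like cells (449, 584, 699 and 561 CPM) and T-like cells (436, 415, 616 and 454 CPM), and Ccnd1 was low in the same cells (at most 22.5 CPM). In endothelial-like cells Ccnd2 was lowest in the Trp53-deleted ADT library, at 73.9 CPM against 234, 172 and 381 in the others, where the mitotic genes were highest. Of the smaller classes, lymphatic endothelial-like cells had 26.7 CPM of the 23 mitotic genes in the Trp53-intact and 384 CPM in the Trp53-deleted ADT library, and plasma-like cells 170 and 41.2 CPM in the Trp53-intact libraries without and with ADT.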
